A study of Mus musculus with 24 samples.

Results

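The genes described here are 9 members of noncanonical Wnt signalling, measured in the left lung lobe of newborn mice: the ligands *Wnt5a*, *Wnt5b* and *Wnt11*, the coreceptors *Ror1*, *Ror2*, *Ryk* and *Ptk7*, and the Frizzled receptors *Fzd2* and *Fzd7*. They were picked by gene symbol and not by a measured value, though earlier results of these data were known. They are 9 of the 23420 genes in each of 4 tables of RNA-seq values. All 9 passed the filter on low values in every table. The study removed *Vangl2* or *Ror2* from the lung epithelium with Sox9-Cre, asking how a *Wnt5a*, *Ror2* and *Vangl2* axis acts in alveolar formation.

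Each table held 3 control and 3 mutant lungs, with separate controls for each mutant and age. The mutants were *Vangl2* f/f; *Sox9* Cre/+ or *Ror2* f/f; *Sox9* Cre/+ mice at postnatal day 2 (P2) or postnatal day 5 (P5), and the labels give the controls as WT. The sample titles name the controls Control(Vangl1/2) or Control(Ror2), and *Vangl1* alleles of the lungs are not given in the titles. The comparisons are called *Vangl2* P2, *Vangl2* P5, *Ror2* P2 and *Ror2* P5. Cre is made from the *Sox9* locus, which is active in the distal lung epithelium and also in tissues outside the lung. The lobes were sequenced whole, so mesenchyme, vessels and blood, in which the floxed gene is kept, contributed to every value, and fewer cells of a type cannot be told apart from less RNA per cell. For the *Vangl2* mutants at P5 and the *Ror2* mutants at P2 the genotype field gives the other mutant's genotype, and the sample titles were followed.

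Noncanonical Wnt ligands act without stabilising beta-catenin. WNT5A binds the receptor tyrosine kinases ROR1 and ROR2 together with a Frizzled, and the signal passes through Dishevelled to JNK and the planar cell polarity protein VANGL2. In the developing lung, loss of *Wnt5a* or *Ror2* is known to disturb the shape of the trachea and of the distal airspaces.

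*Wnt11* and *Ror1* are shown by sequence, because they were the ligand and the coreceptor with the lowest fold changes in most comparisons. That choice was made after their values were seen. The 250 bases before the annotated start of each gene were taken from the RefSeq promoter table (GRCm38.p6, gene strand, 5′ to 3′), in which 7 of the 9 members have an entry. Capitals mark 3 motifs, each searched on both strands: GGGCGG for a GC box, TATAAA for a TATA box, and ATCAAAG for a TCF/LEF core.
Wnt11, chr7:98834862-98835111, plus strand: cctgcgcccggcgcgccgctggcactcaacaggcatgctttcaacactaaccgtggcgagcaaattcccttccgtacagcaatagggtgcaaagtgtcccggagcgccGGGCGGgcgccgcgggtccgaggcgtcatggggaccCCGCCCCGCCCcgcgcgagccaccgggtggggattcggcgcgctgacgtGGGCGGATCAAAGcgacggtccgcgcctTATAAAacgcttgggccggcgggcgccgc
Ror1, chr4:100095541-100095790, plus strand: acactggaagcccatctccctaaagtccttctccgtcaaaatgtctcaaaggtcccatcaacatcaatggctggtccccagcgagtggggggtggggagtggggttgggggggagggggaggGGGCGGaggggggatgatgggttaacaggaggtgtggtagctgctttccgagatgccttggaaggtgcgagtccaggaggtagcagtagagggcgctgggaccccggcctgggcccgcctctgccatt

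The *Wnt11* stretch held 37 CpG dinucleotides, 4 GC boxes (2 of them sharing a base), 1 TATA box and 1 TCF/LEF core directly beside a GC box, while the *Ror1* stretch held 8 CpG dinucleotides and 1 GC box. Another *Wnt11* entry, before an annotated start further downstream and not shown, held 16 CpG dinucleotides and none of the motifs. Of all 32851 promoters in the table, 32.7% held a GC box, 12.4% a TATA box and 3.21% a TCF/LEF core in the same window. A match is a match of letters and was not tested as a site of binding.

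Between 16178031 and 21546673 reads fell on genes in 23 of the 24 lungs. The other lung, control replicate 1 of *Ror2* P5, had 13823693 reads and no reads on chromosomes 6 to 9 and X and on most of chromosome 5, so it was set to missing for genes on chromosomes 5 to 9 and X. Among the members this concerns *Wnt5b* (chromosome 6), *Wnt11* (chromosome 7) and *Ryk* (chromosome 9), whose *Ror2* P5 values rest on 2 control lungs and 3 mutant lungs. *Xist* exceeded 10000 normalized counts in 11 lungs, among them all 3 controls of *Vangl2* P5 and none of the *Ror2* P5 mutants, and the part of sex in the results was not tested.

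Values are normalized counts, that is reads on a gene divided by a size factor of the lung. Fold changes are on the scale of log2(normalized count + 1), mutant over control, with the standard error (SE) from limma fitted over all genes, and p-values were adjusted over every gene tested (Benjamini-Hochberg). Of the genes tested, 3.59% passed an adjusted p of 0.05 in *Vangl2* P2, 0.563% in *Vangl2* P5, 0% in *Ror2* P2 and 0.180% in *Ror2* P5. No member passed in any comparison (0 of 9 in each). At an unadjusted p of 0.05, 2, 2, 4 and 0 of the 9 members passed in *Vangl2* P2, *Vangl2* P5, *Ror2* P2 and *Ror2* P5, beside 22.5%, 18.8%, 19.3% and 18.5% of all genes tested. In this unpaired fit the members' shares lay near those of all genes in both *Vangl2* comparisons, above them in *Ror2* P2, where 4 of 9 passed, and below them in *Ror2* P5, where 0 passed. The 4 in *Ror2* P2 were *Wnt11*, *Ror2*, *Ptk7* and *Fzd2*. Of these, *Ror2* is the targeted gene itself and *Fzd2* was higher in the mutants.

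The count models, run on whole reads recovered from the normalized counts, gave other numbers of calls. DESeq2 called 11.0% of genes in *Vangl2* P2, 6.89% in *Vangl2* P5, 3.80% in *Ror2* P2 and 4.64% in *Ror2* P5, with 1, 1, 1 and 0 members among them. edgeR's quasi-likelihood test called 3.67%, 0.396%, 0% and 0.175% of genes in the same order, and 0 members in each. Same-numbered lungs of *Vangl2* P5 shared their deviations, and limma with the replicate number as a block called 8.95% of genes there and 2 of the 9 members. At an unadjusted p of 0.05 the blocked fit had 6 of the 9 members in *Vangl2* P5, beside 29.0% of all genes. *Wnt5a*, *Wnt11*, *Ror1*, *Ror2*, *Ryk*, *Ptk7* and *Fzd7* (7 of 9) were lower in the mutant of all 3 pairs, as were 25.1% of all genes tested.

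The control and mutant lungs did not overlap for 1 of the 9 members in *Vangl2* P2, 1 in *Vangl2* P5, 4 in *Ror2* P2 and 1 in *Ror2* P5. Over all genes tested, 29.6%, 25.7%, 25.7% and 30.0% had groups that did not overlap. The sign of the fold changes was more one-sided: 9 of 9 members were lower on average in the mutants in each *Vangl2* comparison and 8 of 9 in each *Ror2* comparison, while between 49.45% and 50.6% of all genes tested were lower. The median log2 fold change of the members was −0.25 in *Vangl2* P2, −0.43 in *Vangl2* P5, −0.22 in *Ror2* P2 and −0.16 in *Ror2* P5, beside medians of all genes between −0.0059 and 0.0036. By role, 11 of 12 values of ligands, 16 of 16 of coreceptors and 7 of 8 of Frizzleds lay below 0. *Ror2*, the gene targeted in the *Ror2* mutants, is counted among the lower members and coreceptors of both *Ror2* comparisons. Genes of one lung are not independent of each other, so these counts are a description.

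**Figure D1:**
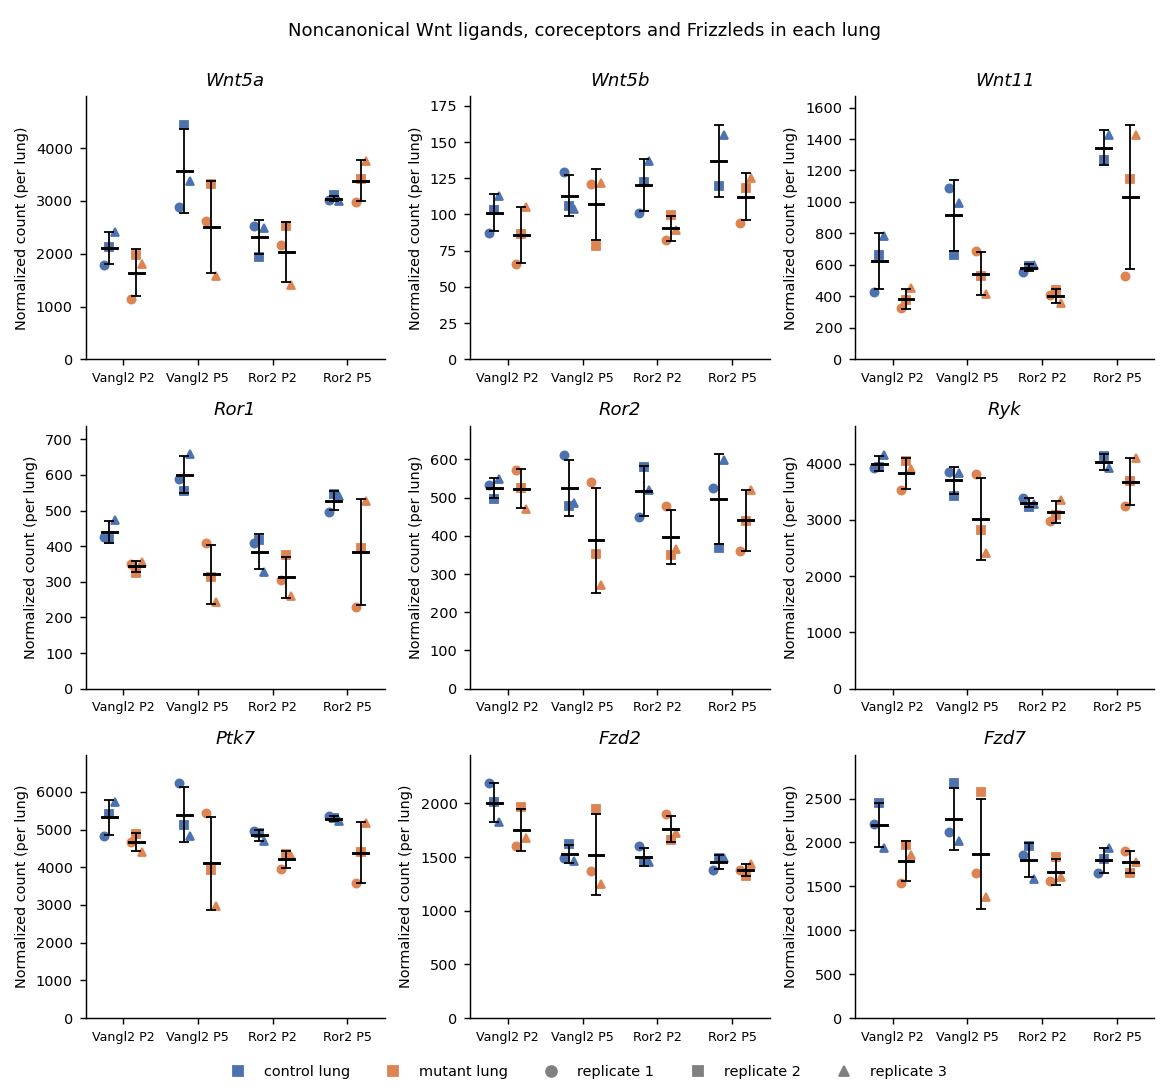
Normalized count of each of the 9 members (vertical axes, from 0) in every lung of the 4 comparisons (horizontal axes), with controls in blue, mutants in orange, a symbol for each replicate number, and black bars for the mean ± SD. Most mutant means lie below their control means, with *Vangl2* P5 mutant replicate 3 and *Ror2* P5 mutant replicate 1 lowest within their own comparison for *Wnt11* and *Ror1*.

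The targeted genes were checked before the members were compared. *Vangl2*, a core planar cell polarity protein, had 249, 302 and 281 normalized counts in the *Vangl2* P2 controls and 241, 224 and 173 in the mutants. At P5 it had 369, 314 and 292 in the controls and 170, 148 and 166 in the mutants. The groups did not overlap at either age, and the mean in the mutants was 76.8% of the controls at P2 and 49.6% at P5. The log2 fold change of *Vangl2* was −0.39 ± 0.18 (SE, limma adjusted p = 0.241) at P2 and −1.003 ± 0.18 (limma adjusted p = 0.0604) at P5. With the replicate block the limma adjusted p at P5 was 0.0194.

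*Ror2*, the targeted gene of the other mutant and itself a member, had 451, 581 and 520 normalized counts in the *Ror2* P2 controls and 479, 349 and 366 in the mutants. At P5 it had 526, 368 and 597 in the controls and 362, 440 and 521 in the mutants. The groups overlapped at both ages, with mutant replicate 1 inside the control range at P2 and mutant replicates 2 and 3 inside it at P5. The mutant mean was 76.9% of the control mean at P2 and 88.7% at P5. The log2 fold change of *Ror2* was −0.38 ± 0.16 (limma unadjusted p = 0.0435, adjusted p = 0.250) at P2 and −0.16 ± 0.20 (limma adjusted p = 0.691) at P5. In whole lobes the loss of *Ror2* that the labels give was therefore not resolved from the spread between lungs.

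*Ror2* was also read in the *Vangl2* mutants at both ages. At P2 the 3 controls had 533, 497 and 549 and the 3 mutants 573, 526 and 472 normalized counts, so that the mean in the mutants was 99.5% of the controls. At P5 the controls had 611, 478 and 487 and the mutants 541, 351 and 273, which is 73.9% of the control mean. The P5 groups overlapped through mutant replicate 1 alone, and the log2 fold change was −0.49 ± 0.25 (limma adjusted p = 0.348), and between −0.75 and −0.26 when single lungs were left out. The change at P5 minus that at P2 was −0.47 on the log2 scale, with a 95% interval from −1.12 to 0.17 (limma adjusted p = 0.655).

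*Vangl2* itself, read in the *Ror2* mutants, had 270, 291 and 245 normalized counts in the P2 controls and 209, 251 and 236 in the P2 mutants. At P5 it had 306, 326 and 287 in the controls and 177, 265 and 338 in the mutants. The *Ror2* P5 mutants thus lay on either side of the control range, with mutant replicate 1 lowest and mutant replicate 3 highest.

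Members were compared with each other only per length, as normalized counts per kilobase of annotated exon in the controls of one table. *Ptk7*, a kinase-dead receptor of the polarity pathway, was highest in all 4 tables, with 989 ± 86.2 per kilobase (SD, n = 3) in the *Vangl2* P2 controls. *Ryk*, an atypical kinase receptor that binds Wnt ligands, came next with 883 ± 28.9, and the ranges of *Ptk7* and *Ryk* overlapped in that table but not in the other 3. *Fzd2* (548 ± 49.7) and *Fzd7* (485 ± 55.8) overlapped each other. *Wnt5a* followed with 269 ± 39.5 and lay apart from its neighbours in both P2 tables.

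*Wnt11* had 151 ± 43.4 per kilobase in the *Vangl2* P2 controls and overlapped *Ror2* with 124 ± 6.26. *Ror1* had 76.2 ± 5.26 and *Wnt5b*, the ligand most related to *Wnt5a*, was lowest in all 4 tables with 38.2 ± 4.87. The *Ror2* P5 controls kept the order of the P2 tables, and the *Vangl2* P5 controls differed in the middle. *Fzd7*, *Wnt5a* and *Fzd2* overlapped as neighbours in the *Vangl2* P5 controls (501, 456 and 417 per kilobase), and *Fzd2*, *Fzd7* and *Wnt5a* did so in the *Ror2* P5 controls (397, 397 and 389). Ages were measured in separately normalized tables and no level was tested between them.

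**Figure D2:**
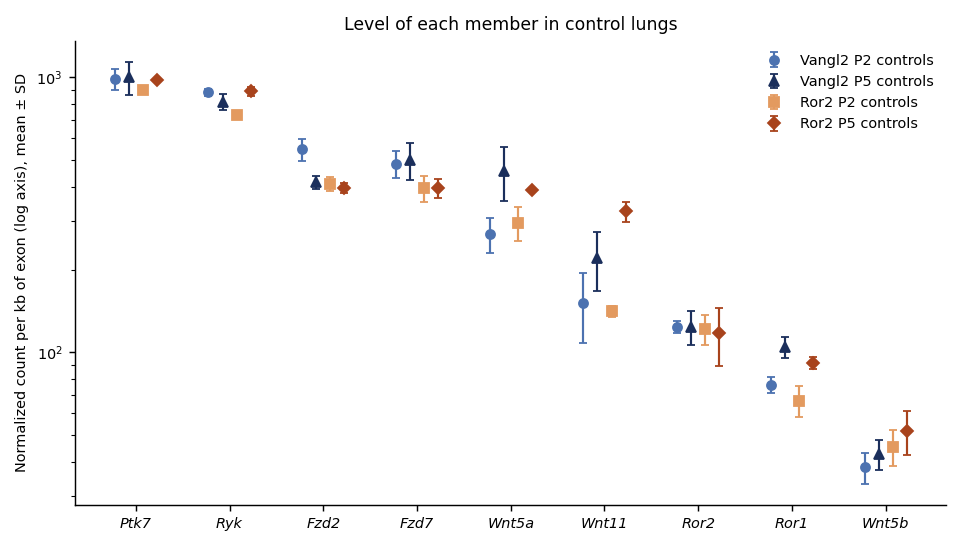
Normalized count per kilobase of exon (vertical log axis) for each member (horizontal axis) in the control lungs of the 4 tables, as mean ± SD of 3 lungs (2 lungs for *Wnt11*, *Ryk* and *Wnt5b* in *Ror2* P5). *Ptk7* and *Ryk* lie at the top and *Wnt5b* at the bottom in every table, with *Ror2* and *Ror1* among the lower members.

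Among the ligands, *Wnt11* had the lowest fold changes. This ligand is known from convergent extension movements and signals without beta-catenin in most settings. In *Vangl2* P2 the controls had 431, 665 and 784 normalized counts and the mutants 324, 375 and 452. In *Vangl2* P5 the controls had 1089, 663 and 992 and the mutants 689, 533 and 414. In both *Vangl2* comparisons the lowest control lay below the highest mutant, so the groups overlapped by 1 lung on each side.

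*Wnt11* in the *Ror2* P2 lungs had 555, 594 and 601 normalized counts in the controls and 410, 444 and 355 in the mutants, and the groups did not overlap. In *Ror2* P5 the 2 controls with a value had 1269 and 1423 and the mutants 529, 1146 and 1426. Mutant replicate 1 was well below the other lungs of that table and mutant replicate 3 was at the level of the higher control. The mutant mean was 61.2% of the control mean in *Vangl2* P2, 59.6% in *Vangl2* P5, 69.1% in *Ror2* P2 and 76.8% in *Ror2* P5.

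Fitted over all genes, the log2 fold change of *Wnt11* was −0.68 ± 0.23 (limma unadjusted p = 0.0201, adjusted p = 0.147) in *Vangl2* P2 and −0.74 ± 0.25 (unadjusted p = 0.0159, adjusted p = 0.171) in *Vangl2* P5. It was −0.54 ± 0.11 (limma unadjusted p = 0.00182, adjusted p = 0.203) in *Ror2* P2, the lowest unadjusted p of a member in that comparison. In *Ror2* P5 it was −0.50 ± 0.38 (limma adjusted p = 0.507), and −0.07 without mutant replicate 1. Exact permutation tests of the single values gave p = 0.2, 0.2, 0.1 and 0.6 (two-sided), where 0.1 is the smallest that 3 lungs against 3 can give and 0.2 the smallest for 2 against 3.

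Some alternatives put *Wnt11* past the threshold. DESeq2 gave an adjusted p of 0.0476 in *Vangl2* P2 (over all alternatives, 0.0476 to 0.386) and 0.0126 in *Ror2* P2 (0.0126 to 0.530). Limma with the replicate block gave an adjusted p of 0.0492 in *Vangl2* P5 (over all alternatives, 0.0492 to 0.372). Without mutant replicate 2 of *Ror2* P2 the limma adjusted p was 0.0450.

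*Wnt5a*, the ligand of the axis under study, had 1786, 2133 and 2403 normalized counts in the *Vangl2* P2 controls and 1138, 1968 and 1812 in the mutants. In *Vangl2* P5 the controls had 2893, 4446 and 3372 and the mutants 2628, 3311 and 1576. The groups overlapped at both ages. The lowest value at P2 was that of mutant replicate 1 and at P5 that of mutant replicate 3, and the log2 fold change rested on them: it was −0.39 ± 0.21 (limma adjusted p = 0.318) at P2 and −0.15 once mutant replicate 1 was left out, and −0.55 ± 0.28 (adjusted p = 0.332) at P5 and −0.25 once mutant replicate 3 was left out.

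*Wnt5a* had 2528, 1943 and 2479 normalized counts in the *Ror2* P2 controls and 2173, 2524 and 1415 in the mutants. In *Ror2* P5 the 3 controls were close together at 3024, 3103 and 3003, and the mutants had 2977, 3415 and 3753. The log2 fold change was −0.22 ± 0.22 (limma adjusted p = 0.590) at P2, and 0.03 without mutant replicate 3. For P5 the value was 0.15 ± 0.09 (limma adjusted p = 0.409), and 2 of the 3 mutants lay above all controls. *Wnt5a* in *Ror2* P5 and *Fzd2* in *Ror2* P2 were the members with a mean higher in the mutants.

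*Wnt5b* was measured at low level, between 66.2 and 155 normalized counts over the 23 lungs. Its mutant mean was 84.8% of the controls in *Vangl2* P2, 94.6% in *Vangl2* P5, 75.3% in *Ror2* P2 and 81.9% in *Ror2* P5. The groups did not overlap in *Ror2* P2, where the controls had 101, 122 and 137 and the mutants 82.3, 99.6 and 89.3. The log2 fold change there was −0.40 ± 0.19 (limma adjusted p = 0.298). In the other comparisons it was −0.25 ± 0.24, −0.10 ± 0.26 and −0.28 ± 0.22 in *Vangl2* P2, *Vangl2* P5 and *Ror2* P5, with limma adjusted p-values of 0.569, 0.874 and 0.505.

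Among the coreceptors, *Ror1*, the receptor tyrosine kinase closest to *Ror2*, had the lowest fold change of any member, in *Vangl2* P5. In *Vangl2* P2 the controls had 425, 419 and 474 normalized counts and the mutants 350, 326 and 355. In *Vangl2* P5 the controls had 588, 556 and 659 and the mutants 408, 312 and 242. The groups did not overlap at either age, and the mutant mean was 78.2% of the controls at P2 and 53.4% at P5.

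*Ror1* overlapped between groups in the *Ror2* comparisons. At P2 the controls had 409, 416 and 327 and the mutants 304, 375 and 260 normalized counts. At P5 the controls had 496, 545 and 542 and the mutants 231, 394 and 527. Mutant replicate 1 of *Ror2* P5, the lung lowest for *Wnt11*, was also lowest for *Ror1*.

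On the log2 scale the fold change of *Ror1* was −0.35 ± 0.12 (limma unadjusted p = 0.0197, adjusted p = 0.146) in *Vangl2* P2 and −0.93 ± 0.21 (unadjusted p = 0.00198, adjusted p = 0.0900) in *Vangl2* P5. With the replicate block the limma adjusted p in *Vangl2* P5 was 0.0321, with DESeq2 it was 0.00577 and with edgeR 0.116, in a range from 0.00577 to 0.254 over all alternatives. The fold change was −0.30 ± 0.17 (limma adjusted p = 0.351) in *Ror2* P2 and −0.54 ± 0.26 (adjusted p = 0.314) in *Ror2* P5, where it was −0.21 without mutant replicate 1. Exact permutation p-values were 0.1 in both *Vangl2* comparisons and 0.2 in both *Ror2* comparisons.

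*Ptk7* had 4821, 5413 and 5736 normalized counts in the *Vangl2* P2 controls and 4669, 4894 and 4417 in the mutants. In *Vangl2* P5 the controls had 6232, 5136 and 4830 and the mutants 5432, 3924 and 2983. The groups overlapped in these comparisons but not in the *Ror2* comparisons. At *Ror2* P2 the controls had 4956, 4901 and 4688 and the mutants 3952, 4364 and 4310, and at *Ror2* P5 the controls had 5352, 5296 and 5221 and the mutants 3573, 4414 and 5182.

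Fold changes of *Ptk7* on the log2 scale were −0.19 ± 0.10 in *Vangl2* P2, −0.43 ± 0.23 in *Vangl2* P5, −0.21 ± 0.07 in *Ror2* P2 and −0.29 ± 0.13 in *Ror2* P5. The limma unadjusted p was 0.0249 in *Ror2* P2 and the adjusted p-values were 0.305, 0.354, 0.219 and 0.274. *Ptk7* was the only member with separate groups in *Ror2* P5, although mutant replicate 3 lay just under the lowest control.

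Over the 23 lungs *Ryk* lay between 2408 and 4153 normalized counts, and the mutant mean was 95.7%, 81.5%, 95.1% and 91.3% of the controls in *Vangl2* P2, *Vangl2* P5, *Ror2* P2 and *Ror2* P5. The groups overlapped in every comparison. The largest log2 fold change of *Ryk* was −0.32 ± 0.18 (limma adjusted p = 0.389) in *Vangl2* P5, where mutant replicates 2 and 3 had 2824 and 2408 while mutant replicate 1 had 3821, inside the control range of 3427 to 3851.

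**Figure D3:**
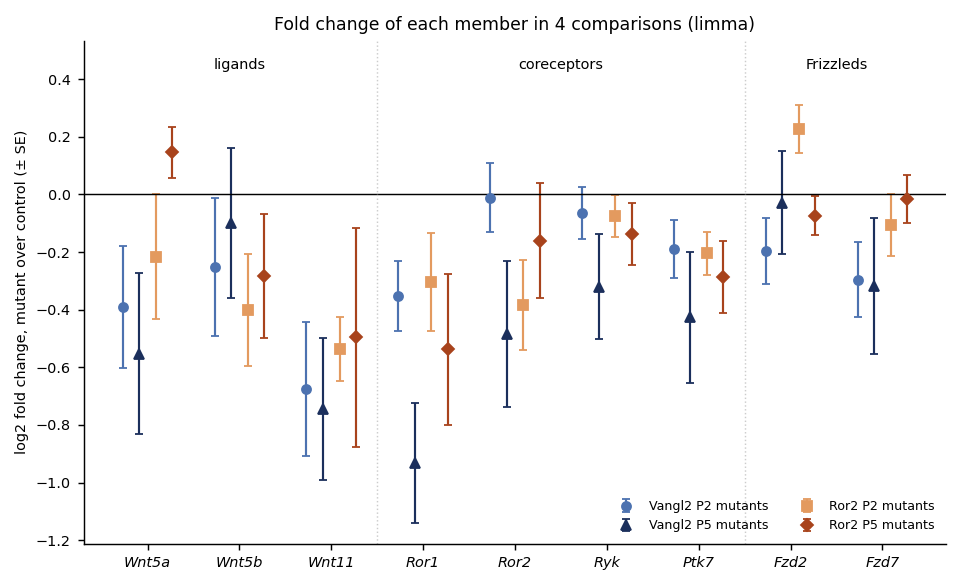
Log2 fold change of each member, mutant over control, with its standard error from limma (vertical axis), for the 9 members grouped by role (horizontal axis) and the 4 comparisons (symbols). *Wnt11* lies between −0.74 and −0.50 in the 4 comparisons, *Ror1* reaches −0.93 in *Vangl2* P5, and *Fzd2* in *Ror2* P2 is the value furthest above 0.

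*Fzd2*, like *Wnt5a*, had fold changes of both signs. *Fzd2* and *Fzd7* are seven-pass receptors that pair with ROR coreceptors on WNT5A binding. In *Ror2* P2, *Fzd2* had 1603, 1451 and 1459 normalized counts in the controls and 1901, 1660 and 1726 in the mutants, and all mutants lay above all controls. In *Vangl2* P2 it had 2188, 2010 and 1824 in the controls and 1607, 1971 and 1680 in the mutants, with 2 mutants below all controls.

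For *Fzd2* the log2 fold change was 0.23 ± 0.08 (limma unadjusted p = 0.0285, adjusted p = 0.225) in *Ror2* P2 and −0.20 ± 0.12 (adjusted p = 0.352) in *Vangl2* P2. At P5 the values of *Fzd2* were near those of the controls, with a log2 fold change of −0.03 ± 0.18 in *Vangl2* P5 and −0.07 ± 0.07 in *Ror2* P5. In *Vangl2* P5 the mutants had 1374, 1951 and 1246 and spread around controls of 1489, 1622 and 1468.

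*Fzd7* had 2207, 2445 and 1939 normalized counts in the *Vangl2* P2 controls and 1538, 1973 and 1861 in the mutants. The log2 fold change was −0.30 ± 0.13 (limma unadjusted p = 0.0528, adjusted p = 0.229) in *Vangl2* P2 and −0.32 ± 0.23 in *Vangl2* P5, where the mutants had 1654, 2579 and 1380. It was −0.11 ± 0.11 in *Ror2* P2 and −0.02 ± 0.08 in *Ror2* P5. The groups overlapped in every comparison.

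Changes were compared between ages and between mutants with limma over the 12 lungs of 2 tables. Of all genes, 0% passed an adjusted p of 0.05 for *Vangl2* P5 against P2, 0% for *Ror2* P5 against P2, 0% for *Ror2* P2 against *Vangl2* P2 and 0.0118% (2 genes) for *Ror2* P5 against *Vangl2* P5, and no member was among them. At an unadjusted p of 0.05 the shares were 8.45%, 9.49%, 4.60% and 4.73%, and the members that passed numbered 1, 1, 1 and 0. The change of *Ror1* in the *Vangl2* mutants at P5 minus that at P2 was −0.58 ± 0.24 (95% interval −1.11 to −0.05, limma unadjusted p = 0.0343, adjusted p = 0.577). The change of *Fzd2* in *Ror2* P2 exceeded that in *Vangl2* P2 by 0.42 ± 0.14 (0.12 to 0.73, limma unadjusted p = 0.0115, adjusted p = 0.946) and its change in *Ror2* P5 minus that in *Ror2* P2 was −0.30 ± 0.10 (−0.53 to −0.08, limma unadjusted p = 0.0126, adjusted p = 0.452).

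For *Wnt5a* the change in *Ror2* P5 minus that in *Vangl2* P5 was 0.70 ± 0.32, with a 95% interval from −0.01 to 1.41 (limma unadjusted p = 0.0523, adjusted p = 0.998). For *Wnt11* the difference between the mutants was 0.14 (−0.47 to 0.75) at P2 and 0.25 (−0.84 to 1.34) at P5. These intervals include 0 and also differences as large as the fold changes themselves.

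The mutant lungs of a group differed from each other. In *Vangl2* P5, mutant replicate 3 lay below all controls for 8 of the 9 members, beside 32.4% of all genes tested in that lung, with a median of −0.85 on the log2 scale against the mean of its controls and −1.30 for *Ror1*. Mutant replicate 1 of the same group lay below all controls for 4 members, beside 31.1% of all genes, with a median of −0.15. Mutant replicate 1 of *Vangl2* P2 lay below for 8 members, beside 38.1% of all genes. In *Ror2* P5, mutant replicate 1 lay below all controls for 8 members, beside 37.1% of all genes, with −1.34 for *Wnt11* and −1.19 for *Ror1*, while mutant replicate 3 did so for 1 member, beside 30.7% of all genes, and had a median of −0.001.

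**Figure D4:**
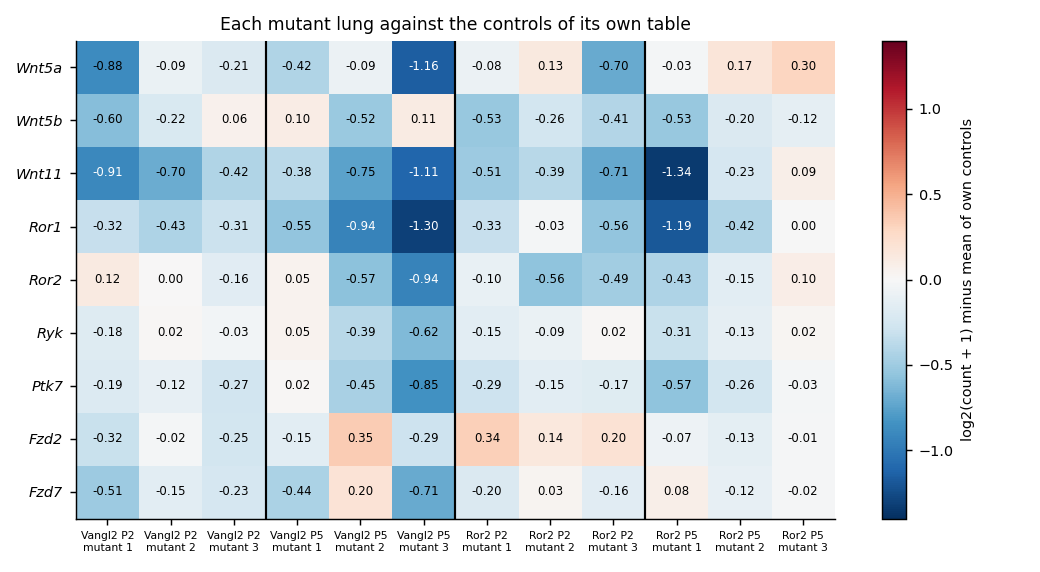
Each mutant lung (columns, 3 per comparison) against the mean of the controls of its own table, as a difference in log2(normalized count + 1), for the 9 members (rows), with blue for lower and red for higher. *Vangl2* P5 mutant replicate 3 and *Ror2* P5 mutant replicate 1 are the darkest columns for *Wnt11* and *Ror1*, and *Fzd2* is red in all 3 *Ror2* P2 mutants.

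The members varied together across lungs. Over the 23 lungs, each value was taken as its deviation from the control mean of its own table, so the points share the difference between mutants and controls as well as the spread within groups. Of 36 pairs of members, 33 had a Pearson's r above 0, with a median of 0.39. The closest pairs were *Ryk* and *Ptk7* (r = 0.90), *Ror1* and *Ptk7* (0.85), *Wnt11* and *Ror1* (0.84), *Wnt11* and *Ptk7* (0.81) and *Ror1* and *Ryk* (0.81). *Ror2* was closest to *Ptk7* (0.74).

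The Frizzleds, *Wnt5b* and, less so, *Wnt5a* stood apart from that group. *Wnt5b* had r = 0.63 with *Wnt11*, between 0.305 and 0.402 with the coreceptors and 0.103 with *Wnt5a*. *Wnt5a* was closest to *Fzd7* (r = 0.73). It had r = 0.53 with *Wnt11*, 0.52 with *Ror1*, 0.46 with *Ptk7*, 0.46 with *Ryk* and 0.30 with *Ror2*. *Fzd2* was closest to *Fzd7* (0.61) and had r between −0.41 and 0.37 with the ligands and coreceptors. Among 12655 other genes with a mean of at least 50 normalized counts in every table, the 5 most like *Wnt5a* were *Gpm6b* (r = 0.89), *Maf* (0.89), *Tfpi* (0.89), *Rtn4* (0.88) and *Cd34* (0.87). The 5 most like *Ror2* were *Gtf3c3* (0.84), *Atpaf1* (0.82), *Acsf2* (0.80), *Slit3* (0.78) and *Pcdhga7* (0.77). The median r of all genes compared was 0.04 with *Wnt5a* and 0.03 with *Ror2*.

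**Figure D5:**
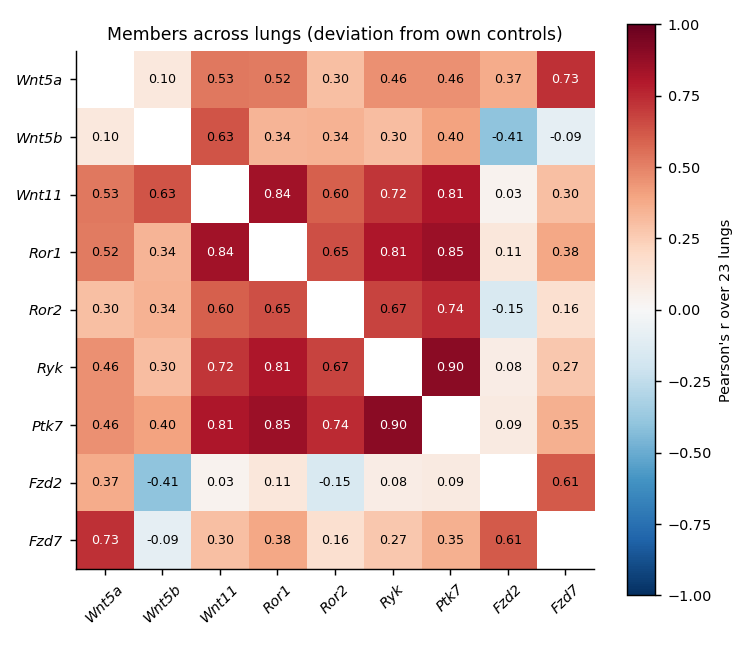
Pearson's r between members (rows and columns) over 23 lungs, each value taken as log2(normalized count + 1) minus the control mean of the same table, from −1 (blue) to 1 (red). *Wnt11*, *Ror1*, *Ror2*, *Ryk* and *Ptk7* form a block with r between 0.60 and 0.90, and *Fzd2* is near 0 with each of them.

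Cell type markers moved with the same lungs. The summed normalized counts of 8 fibroblast genes (*Col1a1*, *Col1a2*, *Col3a1*, *Tcf21*, *Wnt2*, *Npnt*, *Dcn* and *Pdgfrb*) lay between 139500 and 153600 in the *Vangl2* P2 controls and between 102400 and 115200 in the mutants. They lay between 173800 and 201000 against 78460 and 136000 in *Vangl2* P5, between 134900 and 149000 against 83100 and 125700 in *Ror2* P2, and between 177300 and 185000 against 122800 and 162800 in *Ror2* P5. The mutants were below the controls without overlap in all 4 comparisons, with only 2 control lungs in *Ror2* P5, where control replicate 1 was missing. None of the 8 genes was at 0, and 3 collagen genes made up between 64.9% and 83.0% of the sum. At an unadjusted p of 0.05, 4, 5, 3 and 3 of the 8 genes were lower in *Vangl2* P2, *Vangl2* P5, *Ror2* P2 and *Ror2* P5, and 1 was higher, in *Vangl2* P2. Across the 23 lungs the fibroblast sum had r = 0.90 with *Ror1*, 0.81 with *Wnt11*, 0.81 with *Ptk7*, 0.67 with *Ror2*, 0.66 with *Wnt5a* and 0.16 with *Fzd2*.

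Other lists were summed in the same way. The myofibroblast, endothelial, epithelial and cycling cell sums also rest on 2 control lungs in *Ror2* P5. The sum of 8 myofibroblast and smooth muscle genes had r = 0.86 with *Wnt11*, 0.85 with *Ptk7* and 0.82 with *Ryk*, and lay below the controls without overlap in *Vangl2* P2 alone, at 38760 to 46990 against 48690 to 60280. Endothelial genes (6) were below the controls without overlap in *Vangl2* P5, at 37620 to 60690 against 66080 to 73190, and in *Ror2* P5, at 63400 to 68180 against 70920 to 76090, and their sum had r = 0.76 with *Ryk* and 0.64 with *Ror1*. Neutrophil genes (5) were above the controls without overlap in both *Vangl2* comparisons, at 6178 to 10500 against 2466 to 3540 in P2 and 7461 to 15610 against 2181 to 3050 in P5, and their sum had r = −0.76 with *Ror1*.

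The sums of the epithelial lists were higher on average in most mutant groups, but the lists did not all move alike. The sum of *Epcam*, *Cdh1*, *Nkx2-1*, *Krt8* and *Krt18* was above the controls in every mutant of *Vangl2* P2, *Vangl2* P5 and *Ror2* P5, with control ranges of 15890 to 17990, 11170 to 14130 and 9978 to 10300 and mutant ranges of 22880 to 27770, 16180 to 18270 and 11810 to 15780. In *Ror2* P2 the groups overlapped, with 13750 to 15040 in the controls and 14990 to 23270 in the mutants. This sum had r = −0.79 with *Ror1* and −0.76 with *Wnt11* across lungs. The sum of 8 alveolar type II genes overlapped between groups in all 4 comparisons, with a log2 ratio of means of 0.25, 0.58, 0.11 and −0.061 in *Vangl2* P2, *Vangl2* P5, *Ror2* P2 and *Ror2* P5. In the same order the ratios were 0.71, 1.26, 0.51 and 1.36 for 5 airway epithelium genes, whose groups overlapped in *Ror2* P2 alone. For 8 alveolar type I genes they were 0.46, 0.20, 0.55 and 0.135, and the groups overlapped in *Vangl2* P5 alone. Where these groups did not overlap, the mutants lay above the controls.

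Cycling cell genes (5) were below the controls in all mutants of *Vangl2* P2, at 2865 to 5924 against 10490 to 17550, and of *Ror2* P5, at 3567 to 9096 against 10080 to 11300. The groups overlapped in *Vangl2* P5 and *Ror2* P2, where the log2 ratios of means were −0.66 and −1.51. The cycling cell sum had r = 0.63 with *Wnt11* and 0.62 with *Wnt5b*.

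Members were then given per 1000 normalized counts of the fibroblast list, a quantity chosen after the values were seen. The fibroblast sum was itself lower in the mutants, with log2 ratios of means of −0.415, −0.72, −0.4 and −0.365 in *Vangl2* P2, *Vangl2* P5, *Ror2* P2 and *Ror2* P5. A gene with unchanged counts would therefore be higher on this scale, and the share of all genes was not taken on it. The ratios in *Ror2* P5 rest on 2 control lungs. On this scale 31 of the 36 values of members in a comparison were higher in the mutants and 5 lower. All mutants lay above all controls in 10 of the 36: *Ryk* in *Vangl2* P2, *Vangl2* P5 and *Ror2* P5, *Fzd2* in *Vangl2* P5, *Ror2* P2 and *Ror2* P5, *Fzd7* in both *Ror2* comparisons, *Ror2* in *Vangl2* P2 and *Wnt5a* in *Ror2* P5. The difference in mean log2 was 0.73 for *Fzd2* in *Vangl2* P5, 0.52 for *Wnt5a* in *Ror2* P5 and 0.41 for *Ror2* in *Vangl2* P2 (exact permutation p = 0.1, 0.2 and 0.1, the smallest these lungs can give).

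*Wnt11* per 1000 fibroblast counts had 4.28 ± 1.17 in the *Vangl2* P2 controls and 3.51 ± 0.515 in the mutants (SD, n = 3, exact permutation p = 0.4), and 4.83 ± 0.964 against 4.83 ± 0.597 in *Vangl2* P5 (exact permutation p = 0.9). In *Ror2* P2 it had 4.18 ± 0.237 against 3.86 ± 0.380 (n = 3, exact permutation p = 0.3). The groups of *Wnt11* overlapped in all 4 comparisons.

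*Ror1* per 1000 fibroblast counts was 3.02 ± 0.279 in the controls and 3.14 ± 0.0574 in the mutants of *Vangl2* P2. In *Vangl2* P5 it was 3.19 ± 0.0936 against 2.84 ± 0.354, and there the mutants lay below the controls (n = 3, exact permutation p = 0.1). The difference in mean log2 of *Ror1* in *Vangl2* P5 was −0.18 on this scale, beside a log2 fold change of −0.93 for the normalized counts. *Ror2* in *Ror2* P2 had 3.69 ± 0.307 in the controls and 3.86 ± 0.937 in the mutants. The part of the cell make-up of the lobes in the members' values was not tested, and these ratios are a description. Their divisor was 64.9% to 83.0% collagen RNA and not a count of cells, and it had r = 0.90 with *Ror1*.

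The rest of the pathway was read from 5 lists with 84 genes: other Frizzled and LRP receptors, other Wnt ligands, Wnt secretion and extracellular modulators, core planar cell polarity genes and cytoplasmic effectors. Between 80 and 81 of them were tested. None passed an adjusted p of 0.05 with limma in any comparison. DESeq2 called 9, 6, 5 and 3 of them in *Vangl2* P2, *Vangl2* P5, *Ror2* P2 and *Ror2* P5, which is 11.2%, 7.41%, 6.17% and 3.70% of those tested. The 5 in *Ror2* P2 were *Fzd5*, *Wnt7a*, *Cthrc1*, *Prickle1* and *Jun*, and the 3 in *Ror2* P5 were *Fzd1*, *Prickle1* and *Nfatc1*, named after their values were seen. Limma with the replicate block called 8 in *Vangl2* P5 (9.88%). At an unadjusted p of 0.05, 10 were higher and 6 lower in *Vangl2* P2, 6 higher and 12 lower in *Vangl2* P5, 15 higher and 4 lower in *Ror2* P2, and 10 higher and 10 lower in *Ror2* P5. These sum to 16, 18, 19 and 20 pathway genes, or between 20% and 24.7% of those tested, beside the 22.5%, 18.8%, 19.3% and 18.5% of all genes, and the counts of single lists that follow are parts of them.

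Of the receptors outside the member list, *Fzd5* had 690, 610 and 588 normalized counts in the *Vangl2* P2 controls and 1267, 1075 and 800 in the mutants, with a log2 fold change of 0.71 ± 0.17 (limma adjusted p = 0.0648). DESeq2 gave it an adjusted p of 0.00436, and limma with the replicate block 0.0412. *Fzd4*, the Norrin receptor of endothelium, had 2676, 2275 and 2340 in the *Vangl2* P5 controls and 2332, 1194 and 960 in the mutants, with −0.80 ± 0.30 (limma adjusted p = 0.206, with the replicate block 0.0489). *Fzd9* was at 11.0 normalized counts or fewer in *Vangl2* P5 and had a log2 fold change of 1.19 ± 0.54. The list of 10 receptors had 1 gene higher and 1 lower at an unadjusted p of 0.05 in *Vangl2* P2, 0 and 2 in *Vangl2* P5, 2 and 0 in *Ror2* P2 and 0 and 3 in *Ror2* P5.

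Of the other Wnt ligands, 12 or 13 of 16 were tested. *Wnt4* had 312, 216 and 176 normalized counts in the *Vangl2* P5 controls and 483, 496 and 645 in the mutants, with a log2 fold change of 1.23 ± 0.24 (limma adjusted p = 0.0703). With the replicate block its limma adjusted p was 0.0286, and with DESeq2 0.000606. *Wnt10b* had 32.7, 46.5 and 49.8 in the *Vangl2* P2 controls and 7.24, 17.7 and 25.5 in the mutants (−1.44 ± 0.46, limma adjusted p = 0.127), and *Wnt3* did not exceed 12.4 in that comparison. *Wnt2*, a ligand of the fibroblast list and named after its values were seen, was lower on average in the mutants of all 4 comparisons, at −1.01, −0.73, −0.45 and −0.37 on the log2 scale, without overlap in both *Vangl2* comparisons. The median log2 fold change of this list lay above 0 in all 4 comparisons, at 0.24, 0.09, 0.36 and 0.35, and its difference from the member ligands was not tested.

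The extracellular modulators with the largest fold changes were scarce genes. *Sfrp5*, a secreted Wnt antagonist, did not exceed 16.5 normalized counts in *Vangl2* P5 (log2 fold change 2.09 ± 0.92), and the antagonists *Sfrp4* in *Ror2* P2 (−1.87 ± 0.83) and *Frzb* in *Ror2* P5 (−1.53 ± 0.72) did not exceed 66.1 and 41.7. Of this list of 14 genes, 3 were higher and 2 lower at an unadjusted p of 0.05 in *Vangl2* P2, 2 and 2 in *Vangl2* P5, 2 and 4 in *Ror2* P2 and 2 and 0 in *Ror2* P5. More abundant genes were named after their values were seen. *Porcn* was above all controls in all 4 comparisons (log2 fold changes 0.64, 0.37, 0.44 and 0.49, limma adjusted p from 0.11 to 0.26), with 2 controls in *Ror2* P5. *Cthrc1* was below all controls in both P2 comparisons (−0.76 and −0.79) and overlapped at P5. In *Vangl2* P5, *Wif1* was below all controls (−0.87) and *Sfrp1* above (1.02), with limma adjusted p of 0.094 and 0.121.

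Among the core polarity genes, *Celsr3*, a seven-pass cadherin, had 12.8, 16.5 and 10.1 normalized counts in the *Vangl2* P5 controls and 50.4, 26.9 and 44.7 in the mutants (1.54 ± 0.39, limma adjusted p = 0.111, DESeq2 adjusted p = 0.0305). *Prickle1*, which binds Vangl proteins, had 2095, 1751 and 1259 in the *Ror2* P2 controls and 3038, 2431 and 2578 in the mutants (0.68 ± 0.19, limma adjusted p = 0.203, DESeq2 adjusted p = 0.0372). Both had groups that did not overlap. Counting *Vangl2*, 1 of the 10 polarity genes was higher and 0 lower at an unadjusted p of 0.05 in *Vangl2* P2, 2 and 3 in *Vangl2* P5, 2 and 0 in *Ror2* P2 and 2 and 0 in *Ror2* P5.

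Of the 34 cytoplasmic effectors, 4 were higher and 1 lower at an unadjusted p of 0.05 in *Vangl2* P2, 0 and 4 in *Vangl2* P5, 7 and 0 in *Ror2* P2 and 2 and 7 in *Ror2* P5. *Jun*, the transcription factor downstream of JNK, had 5551, 5097 and 4032 normalized counts in the *Ror2* P2 controls and 8518, 6066 and 8191 in the mutants (0.63 ± 0.17, limma adjusted p = 0.203, DESeq2 adjusted p = 0.0244). *Camk2a*, a calcium-dependent kinase, had 171, 131 and 133 against 202, 200 and 282 in the same comparison (0.64 ± 0.20, limma adjusted p = 0.206). *Mapk10*, a JNK gene, had 8.03 and 24.8 in the 2 *Ror2* P5 controls with a value and 126, 48.0 and 21.0 in the mutants (1.75 ± 0.77, limma adjusted p = 0.286).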

How the data were processed

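RNA from the left lung lobe of 24 mice (TRIzol and RNeasy) was sequenced by the authors on Illumina HiSeq instruments. They deposited 4 tables of signal values, which are normalized counts: the reads counted on a gene over the lung's size factor, per the file headers with the columns of a DESeq2 results table. Fold changes, p-values and scores of the authors' own comparisons were not used. The submitters' processing notes name DESeq2 and mm10, and the aligner, counter and annotation are not given in the sources used here. Each value was a whole multiple of 1 step in its lung, and 100% of values came within 0.02 of whole reads in all 24 lungs, though in 3 P5 control lungs the step lies within 0.01 of 1. Limma (version 3.58.1, with a variance trend, R version 4.3.3) was run on log2(normalized count + 1) for genes with at least 1 in at least 3 of 6 lungs. In *Ror2* P5 genes without control replicate 1 were fitted on 5 lungs. edgeR (version 4.0.16) and DESeq2 (version 1.42.0, independent filtering off) were run on the recovered reads. The limma script was tested on simulated data. Exact permutation tests used scipy (version 1.17.1). Positions and exon lengths are from GENCODE vM21 (GRCm38). Replicates are separate lungs by their labels, and litters are not given. Same-numbered lungs deviated together in *Vangl2* P5 (Pearson's r = 0.485, 0.484 and 0.289 over 15053 genes), but not in all pairs of the other tables. Named were all 9 members, *Vangl2*, and, since limma without a block called no pathway gene, the 3 genes of each list with the largest absolute fold change. For *Wnt5a* and *Ror2* the 5 genes most like them were named. Other pathway genes are marked as named after their values were seen. The members and lists were chosen with earlier results of these data known. Of the 23420 rows, 155 could not be placed on a chromosome and lost control replicate 1 in *Ror2* P5. Counting intervals do not apply to these normalized values.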

Additional observations from a re-analysis of the deposited data

How the results depend on the processing

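The numbers of genes called by limma moved with the processing, for reasons that were not tested. Against 626, 98, 0 and 31 genes in *Vangl2* P2, *Vangl2* P5, *Ror2* P2 and *Ror2* P5, DESeq2 called 1913, 1199, 666 and 797, and limma without a variance trend called 1, 4, 2 and 11. With total scaling *Vangl2* P5 had 193 calls. With the replicate block, in which *Vangl2* P5 lungs are paired by number, *Vangl2* P5 had 1558, *Ror2* P2 1 and *Ror2* P5 1. In the other 3 tables the same-numbered lungs had r between −0.139 and 0.306, and whether they are paired is not known. In *Ror2* P5, 1 gene was called with control replicate 1 kept for all genes, which also shifted the median log2 fold change of all genes to 0.18. Total scaling shifted the median difference of all genes to 0.18 for *Vangl2* P5 against P2 and to 0.10 for *Ror2* P5 against P2. The difference between *Ror2* P5 and *Vangl2* P5 had 2 calls, and 4 with total scaling and 4 without a variance trend. Leaving out 1 lung at a time gave between 1 and 2333 calls in *Vangl2* P2, 0 and 54 in *Vangl2* P5, 0 and 859 in *Ror2* P2, 0 and 901 in *Ror2* P5, and 0 and 4 for that difference.

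Members were called 0 times by limma. DESeq2 called 1 in *Vangl2* P2 (*Wnt11*, log2 fold change −0.71), 1 in *Vangl2* P5 (*Ror1*, −0.91) and 1 in *Ror2* P2 (*Wnt11*, −0.53), the replicate block called 2 in *Vangl2* P5 (*Ror1*, −0.93, and *Wnt11*, −0.74), and leaving out single lungs called between 0 and 1 in *Ror2* P2. Of 333 values of members under alternatives that keep every lung, 322 kept their sign and side of the threshold and 6 changed sign: *Fzd2* in *Vangl2* P5 was 0.067 with total scaling and 0.010 with edgeR, *Fzd7* in *Ror2* P5 was 0.018 with total scaling, and with control replicate 1 of *Ror2* P5 kept *Wnt5b*, *Wnt11* and *Ryk* were 2.08, 2.97 and 3.86, since that lung lists them at 0. Without 1 lung the sign also changed for *Ror2* in *Vangl2* P2 (−0.078 to 0.062), *Wnt5b* in *Vangl2* P5 (−0.21 to 0.11), *Fzd2* in *Vangl2* P5 (−0.22 to 0.10), *Wnt5a* in *Ror2* P2 (−0.39 to 0.026) and *Fzd7* in *Ror2* P5 (−0.077 to 0.038).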
